A study of Arabidopsis thaliana with 4 samples.

Results

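Stomatal lineage genes direct the divisions by which cells of the shoot epidermis become stomata, and 10 of them, given by gene identifier, were described among the 32833 genes of the count table. They were the transcription factor genes SPCH (AT5G53210), MUTE (AT3G06120), FAMA (AT3G24140) and ICE1 (AT3G26744), the polarity gene BASL (AT5G60880) and the receptor gene TMM (AT1G80080). The others were the peptide genes EPF1 (AT2G20875), EPF2 (AT1G34245) and STOMAGEN (AT4G12970), and the protease gene SDD1 (AT1G04110). RNA came from Arabidopsis thaliana seedlings of the Col0 ecotype, 7 days old and grown in 16 h light and 8 h dark, and was sequenced as strand-specific mRNA libraries. There were 2 libraries from seedlings labelled cml39 -/-, mutant for the calmodulin-like calcium sensor gene CML39, and 2 from seedlings labelled WT (here wt). The labels give neither the allele of the mutant nor whether the samples of a group were grown apart, so p-values measure only the spread between these samples, which may be technical.

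Stomata are pores between paired guard cells. As background, SPCH starts the lineage with an asymmetric division, MUTE ends the self-renewing divisions, and FAMA completes guard cell formation, each as a dimer with ICE1 or its relative SCRM2. The secreted peptides EPF1 and EPF2 act through ERECTA family kinases and TMM, and a MAP kinase cascade below them restrains SPCH, while STOMAGEN, a peptide made in the mesophyll, competes for the same receptors and raises stomatal density.

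Libraries held 19331639 to 24101882 counts, so that 1 count corresponded to 0.0375 to 0.0547 normalised CPM. Normalised CPM is the count scaled by library size times a TMM factor. The factor was 0.905 and 0.923 in cml39, against 1.11 and 1.08 in wt. It thus raises cml39 over wt, relative to scaling by library size alone. CML39 had 45 and 21 counts in the libraries labelled cml39, against 0 and 0 in those labelled wt, at least 27.1-fold higher when wt is set at a floor of 3 counts for both libraries together (edgeR adjusted p = 0.00218). That goes against a loss of the transcript under the mutant label, so each direction here is that of the library labelled cml39 over the library labelled wt. The library labelled cml39 2 also held 5 seed storage genes at a summed 143 CPM, against 0.101 CPM in cml39 1, 0.188 CPM in wt 1 and 0 CPM in wt 2. Their part in the results was not tested; each library was left out in turn.

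The 2 members that fell most and 2 that rose are shown by the 250 bases before their annotated start, in RefSeq TAIR10.1, to set their sequences beside their opposite changes. Capitals mark each E-box, the letters CANNTG that bHLH factors such as SPCH, FAMA and ICE1 are known to bind. The windows lie at chr4:7587100-7587349 for STOMAGEN, chr1:1063810-1064059 for SDD1, chr1:30129650-30129899 for TMM and chr3:8718212-8718461 for FAMA, all on the minus strand and outside other annotated genes, and are written 5′ to 3′.
STOMAGEN: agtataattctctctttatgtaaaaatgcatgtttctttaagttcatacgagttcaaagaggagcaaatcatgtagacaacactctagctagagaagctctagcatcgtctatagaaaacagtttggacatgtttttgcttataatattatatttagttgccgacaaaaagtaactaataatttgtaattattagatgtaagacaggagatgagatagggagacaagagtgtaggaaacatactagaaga
SDD1: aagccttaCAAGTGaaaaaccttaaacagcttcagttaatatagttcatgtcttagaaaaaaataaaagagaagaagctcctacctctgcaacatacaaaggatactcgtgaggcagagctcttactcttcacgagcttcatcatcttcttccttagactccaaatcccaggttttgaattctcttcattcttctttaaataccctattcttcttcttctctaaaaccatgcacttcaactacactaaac
TMM: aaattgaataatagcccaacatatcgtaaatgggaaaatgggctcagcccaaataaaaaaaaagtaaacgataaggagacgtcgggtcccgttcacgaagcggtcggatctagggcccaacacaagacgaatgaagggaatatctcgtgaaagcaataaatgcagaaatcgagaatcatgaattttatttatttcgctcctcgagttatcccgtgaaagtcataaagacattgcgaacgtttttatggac
FAMA: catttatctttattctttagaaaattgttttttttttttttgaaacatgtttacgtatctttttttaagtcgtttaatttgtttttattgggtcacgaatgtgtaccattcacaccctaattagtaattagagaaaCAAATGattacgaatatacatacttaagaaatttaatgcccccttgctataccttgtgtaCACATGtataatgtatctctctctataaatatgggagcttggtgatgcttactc
STOMAGEN and TMM, which moved in opposite directions, both had 0 matches to CANNTG in this window, while SDD1 had 1 and FAMA 2. Of the 10 members 6 held a match, as did 55.3% of 27443 promoters of the same length. The narrower form CACGTG, which is part of CANNTG, was in 0 of 10 members and 6.5% of promoters. CACGCG, which is not a form of CANNTG, was in 1 of 10 members, ICE1, and 2.6% of promoters. AACGG, the core of an element of mitotic genes, was in 1 of 10, TMM, and 20.6% of promoters. Both strands were searched.

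Across the 10 genes, STOMAGEN and SDD1 fell in seedlings labelled cml39, while FAMA, TMM and ICE1 rose by a smaller factor. SPCH, which opens the lineage, differed by less than the spread between libraries. Of the 10 members 8 had enough counts for the test, and 3 of these rose and 2 fell. Of all 19834 tested genes 40.9% were called, 19.3% higher and 21.6% lower, so that 5 of 8 members is not read as more than the background. The median log2 fold change of the 8 was 0.31, against -0.0052 over all tested genes. It lay midway between BASL and EPF2 and was -0.01 without cml39 1, where EPF2 stood at -0.67, and 0.16 with upper quartile scaling. Summed over the 10 genes, the level was 98.4 and 104 CPM in cml39, against 85.3 and 81.6 CPM in wt. In bulk RNA from whole seedlings, fewer cells of a type and less RNA per cell cannot be told apart.

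**Figure D1:**
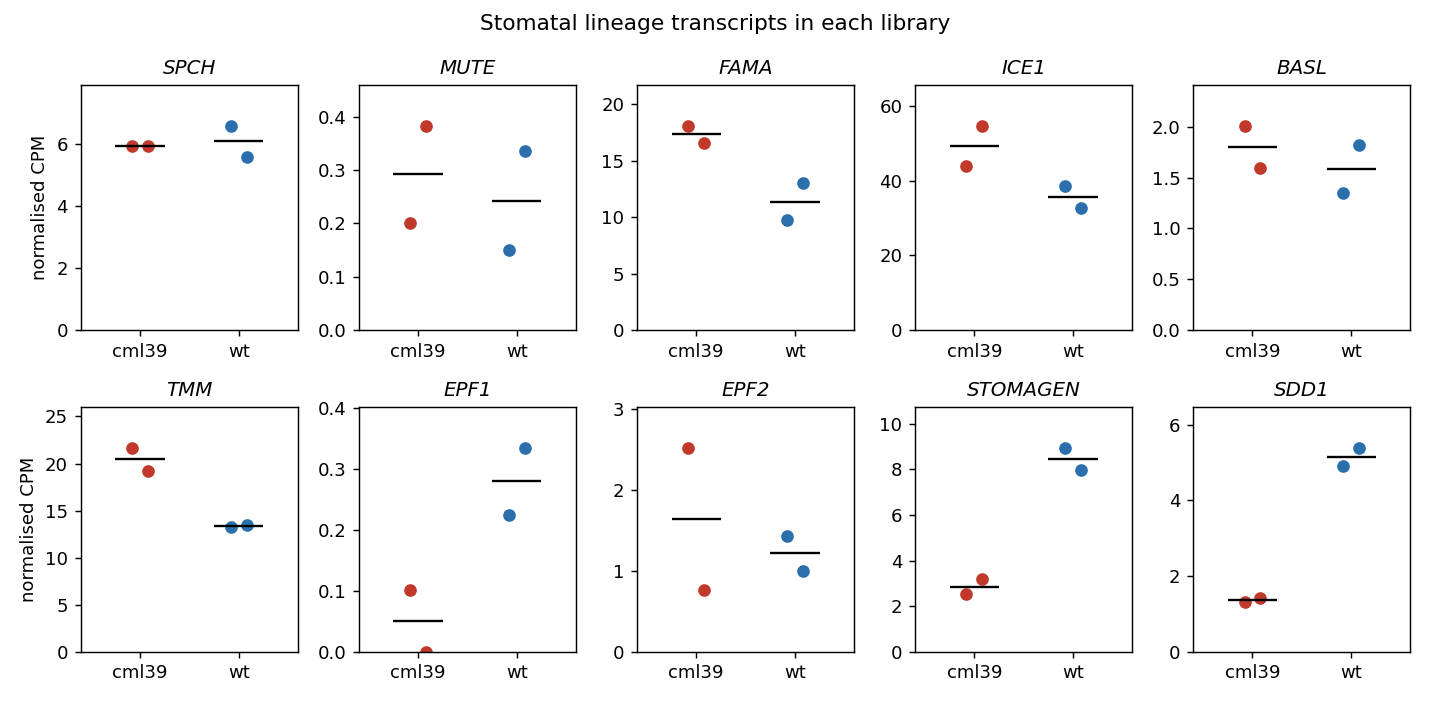
Normalised CPM (vertical axes, starting at 0) of the 10 stomatal lineage genes in each library; points are the 2 libraries of cml39 (red, left) and of wt (blue, right), and bars are group means. The points of STOMAGEN and SDD1 lie lower in cml39 than in wt, those of FAMA, TMM and ICE1 lie higher, and those of SPCH overlap.

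Among the transcription factors, SPCH had 5.94 and 5.96 CPM in cml39, against 6.6 and 5.6 CPM in wt. The cml39 libraries lay between the wt libraries. The log2 fold change was -0.04 ± 0.21 (SE, n = 2 libraries per group; 95% interval -0.52 to 0.44; edgeR adjusted p = 0.901), which leaves room for a change of that size in either direction.

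MUTE, which acts briefly in the few cells about to become guard mother cells, was near the limit of detection. It had 4 and 7 counts in cml39, against 4 and 7 counts in wt, and was not tested. The ratio of summed counts was 1.25 (exact binomial 95% interval 0.49 to 3.17, counting error only), so that a change was not detectable at this depth.

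FAMA, the last of these switches, had 18.1 and 16.6 CPM in cml39, against 9.71 and 13 CPM in wt. Both cml39 libraries were above both wt libraries. It rose 1.54-fold (log2 0.62 ± 0.18, SE, n = 2; edgeR adjusted p = 0.0278). The call was lost without wt 1, at a log2 change of 0.43 (adjusted p = 0.21), and with upper quartile scaling, at 0.47 (adjusted p = 0.0687; range over 13 alternatives 0.0116 to 0.21). Without wt 2 it was kept, at 0.83 (adjusted p = 0.0279).

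ICE1, a partner of the other 3 factors and also a regulator of the cold response, had 44 and 54.8 CPM in cml39, against 38.7 and 32.6 CPM in wt. The groups did not overlap, but the lowest cml39 library stood close to the highest wt library. It rose 1.38-fold (log2 0.47 ± 0.15, SE, n = 2; edgeR adjusted p = 0.036). This was the least stable call of the 5. It was lost without cml39 2 (log2 0.3, adjusted p = 0.109), without wt 1 (0.6, adjusted p = 0.0594), without wt 2 (0.34, adjusted p = 0.22) and with upper quartile scaling (0.32, adjusted p = 0.125), in a range of 0.00387 to 0.22 over 13 alternatives. Its relative SCRM2, with which it can share reads, had 31.1 and 41.3 CPM in cml39, against 39.8 and 35.9 CPM in wt (log2 -0.07 ± 0.15, adjusted p = 0.761).

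BASL, which marks the side of the cell away from the asymmetric division plane, had 2.01 and 1.59 CPM in cml39, against 1.35 and 1.82 CPM in wt. The groups overlapped, with a log2 fold change of 0.19 ± 0.37 (SE; 95% interval -0.66 to 1.05; edgeR adjusted p = 0.706). At 29 to 40 counts per library the interval is wide.

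TMM, a receptor-like protein without a kinase domain that shapes how ERECTA family receptors read the peptides, had 21.7 and 19.2 CPM in cml39, against 13.3 and 13.5 CPM in wt. Both groups were tight and did not overlap. It rose 1.52-fold (log2 0.61 ± 0.14, SE, n = 2; edgeR adjusted p = 0.0115). The size was 0.6 without wt 1 (adjusted p = 0.0828) and 0.61 without wt 2 (adjusted p = 0.067), where the call was lost (range over 13 alternatives 0.00527 to 0.0828). Upper quartile scaling put the median of all tested genes at -0.153 in place of -0.005, and there TMM stood at 0.46 and passed.

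The ligands differed from one another. EPF2, the peptide that limits entry into the lineage, had 2.52 and 0.766 CPM in cml39, against 1.43 and 1 CPM in wt. The cml39 libraries lay on either side of both wt libraries, so their spread exceeded the difference between groups (log2 0.43 ± 0.57, SE; 95% interval -0.89 to 1.75; edgeR adjusted p = 0.577). The estimate was -0.67 without cml39 1 and 1.03 without cml39 2.

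EPF1, which acts later to orient divisions and keep stomata apart, had 2 and 0 counts in cml39, against 6 and 7 counts in wt. It was too low to be tested. The ratio of summed counts was 0.192, with an exact binomial 95% interval of 0.021 to 0.847 that covers counting error only.

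STOMAGEN, the peptide with the opposite action, had 2.52 and 3.17 CPM in cml39, against 8.96 and 7.99 CPM in wt. The highest cml39 library was far below the lowest wt library. It was 2.98-fold lower (log2 -1.58 ± 0.23, SE, n = 2; edgeR adjusted p = 0.00158) and was called in each of the 13 alternatives, at -1.75 to -1.42.

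SDD1, a subtilisin-like protease that restrains stomatal density, had 1.31 and 1.42 CPM in cml39, against 4.91 and 5.4 CPM in wt. The 26 counts in each cml39 library stood against 131 and 113 counts in wt. It was 3.77-fold lower (log2 -1.91 ± 0.28, SE, n = 2; edgeR adjusted p = 0.00159) and was called in each of the 13 alternatives, at -2.06 to -1.85. The members that fell thus hold both a gene known to raise stomatal density, STOMAGEN, and one known to lower it, SDD1.

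**Figure D2:**
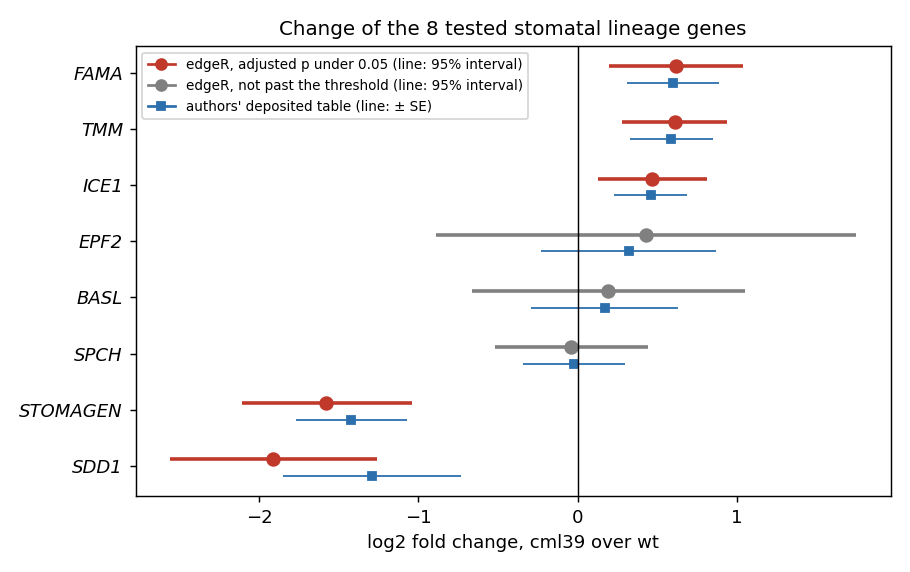
Log2 fold change of cml39 over wt (horizontal axis) for the 8 tested stomatal lineage genes. Circles are edgeR estimates with 95% intervals, red where the adjusted p was under 0.05, and blue squares are the authors' deposited values ± SE; SDD1 (-1.91) and STOMAGEN (-1.58) lie left of 0 and FAMA (0.62), TMM (0.61) and ICE1 (0.47) right of it.

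The call of the authors' deposited table was given to 1 of the 10 members, against 16% of the 20717 genes with an adjusted p there. STOMAGEN stood in the authors' deposited table at -1.42 ± 0.35 on the log2 scale (SE, adjusted p = 0.000822). SDD1 in the authors' deposited table was at -1.29 ± 0.56 (adjusted p = 0.0947), and in the authors' deposited table TMM (0.59, adjusted p = 0.112), FAMA (0.6, adjusted p = 0.152) and ICE1 (0.46, adjusted p = 0.173) were not called either. SPCH in the authors' deposited table was at -0.02 ± 0.32 (adjusted p = 0.98). DESeq2 run here on the deposited counts put SDD1 at -1.91 (DESeq2 adjusted p = 9.46e-05). The authors' mean normalized count for MUTE was 13, above its 4 and 7 counts in either group. Their fit may thus not rest on the same counts, and the 2 sets of values are not a like comparison.

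Per kilobase of exon, the order of the members differed between the groups. In cml39, ICE1 was highest at a mean of 19.6 CPM per kb, followed by TMM (11.2), FAMA (7.32), STOMAGEN (2.89), SPCH (2.73), EPF2 (1.98), BASL (1.42), SDD1 (0.543), MUTE (0.31) and EPF1 (0.0581). In wt, ICE1 (14.1 CPM per kb) was followed by STOMAGEN (8.6), TMM (7.33), FAMA (4.78), SPCH (2.8), SDD1 (2.05), EPF2 (1.47), BASL (1.25), EPF1 (0.323) and MUTE (0.258). The libraries of STOMAGEN, SPCH, EPF2 and BASL overlapped with a neighbour in cml39, and in wt EPF2 overlapped with BASL and EPF1 with MUTE. STOMAGEN stood above TMM and FAMA in both wt libraries and below both genes in both cml39 libraries.

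Ratios between members within a library do not depend on the scaling; they were chosen after the values were seen and are given without a test. STOMAGEN over TMM, per kilobase, was 0.216 and 0.307 in cml39, against 1.25 and 1.1 in wt. SDD1 over TMM was 0.044 and 0.054 in cml39, against 0.269 and 0.291 in wt. Both ratios were well apart between the groups. FAMA over SPCH was 2.8 and 2.56 in cml39, against 1.35 and 2.13 in wt. TMM over SPCH was 4.34 and 3.83 in cml39, against 2.4 and 2.88 in wt. BASL over SPCH, both genes of cells that divide asymmetrically, was 0.582 and 0.457 in cml39, against 0.351 and 0.557 in wt, and overlapped.

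**Figure D3:**
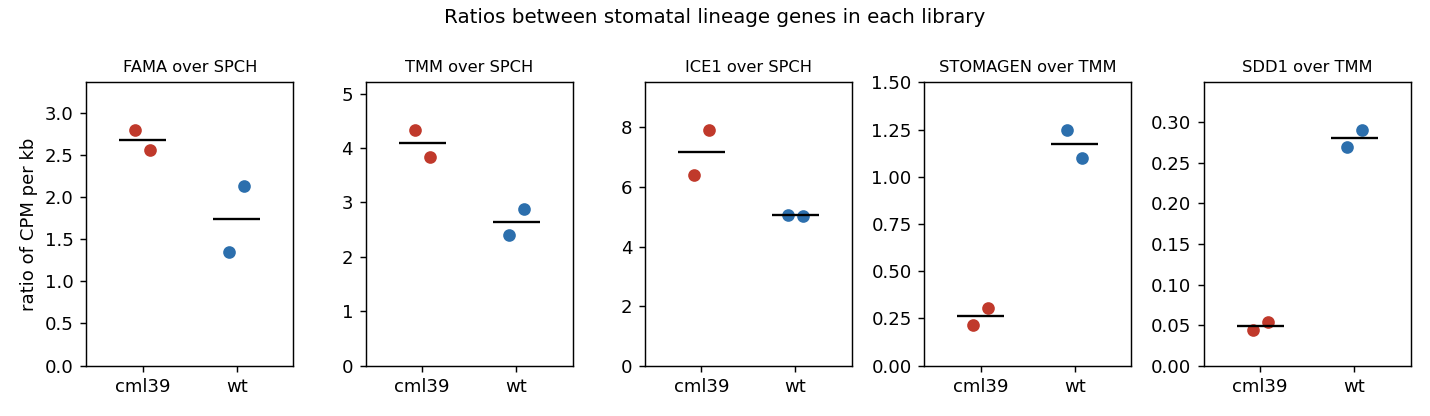
Ratios between stomatal lineage genes in each library, from CPM per kilobase of exon (vertical axes, starting at 0); points are libraries, cml39 red at the left and wt blue at the right, and bars are group means. STOMAGEN over TMM is 0.216 and 0.307 in cml39 and 1.25 and 1.1 in wt.

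The genes around the members were followed in 16 further lists holding 150 genes, of which 136 were tested. Of the calls in these lists 79 were made with all libraries, and 32 of them were lost without wt 1, so counts without that library are given beside the counts of each list. The libraries of cml39 and wt did not overlap for 74% of all tested genes, 36% higher and 38% lower. Calls were made for 40.9% of all tested genes, 19.3% higher and 21.6% lower. Counts of a list near these shares are not read as more than the background.

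Of 6 tested genes of the MAP kinase cascade that acts on SPCH, 5 were higher and 0 lower, with a median log2 change of 0.76, and 4 were higher without wt 1. YDA, the kinase at its top, had 69.1 and 61.3 CPM in cml39, against 42.8 and 43.9 CPM in wt (log2 0.59 ± 0.11, edgeR adjusted p = 0.00473). MKK9 (1.72 ± 0.25), MKK5 (0.82 ± 0.16) and MPK3 (0.7 ± 0.14) rose as well. MKK4 (0.85 ± 0.18) rose but was not called without wt 1 (0.79). MPK6, which acts beside MPK3 at the end of the cascade, did not pass (0.31 ± 0.11, adjusted p = 0.0589), and MKK7 was too low to be tested. The same kinases also serve immune and stress signalling, and the libraries do not tell in which cells they changed.

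Receptor kinases moved both ways. Of 7 tested 3 were higher and 2 lower, or 0 and 1 without wt 1. The median of 0.33 was 0.12 without cml39 2, 0.13 without wt 2 and 0.18 with upper quartile scaling. ER (ERECTA), a partner of TMM, had 39 and 43.1 CPM in cml39, against 75.4 and 73.9 CPM in wt. It fell by 0.86 ± 0.11 on the log2 scale (edgeR adjusted p = 0.000786). SERK1 fell (-1.25 ± 0.24; -1.02 and not called without wt 1), and the coreceptor genes BAK1 (0.54 ± 0.14; 0.45 and not called without wt 1) and SERK4 (0.86 ± 0.24; 0.69 and not called without wt 1, nor without cml39 1, at 0.45) rose. SERK2 (0.43 ± 0.13) rose in a call lost with upper quartile scaling (0.29) and without cml39 2 (0.31) or either wt library (0.38 and 0.48). Thus TMM rose in the libraries in which ER fell. ERL1 (-0.83, adjusted p = 0.0831) and ERL2 (0.33, adjusted p = 0.247) did not pass.

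Among the other EPF-like peptide genes and CRSP, a protease that processes EPF2, 6 were tested, 1 higher and 2 lower, or 0 and 1 without wt 1 and without wt 2, with a median of -0.48. CHAL (EPFL6), a repressor of stomata in stems and hypocotyls, had 3 counts in cml39, against 88 in wt, a 23.5-fold lower level (exact binomial 95% interval 7.79 to 116, counting error only; edgeR adjusted p = 0.0014). Its relative CLL1 (EPFL5) had 0.352 and 0.492 CPM in cml39, against 1.8 and 1.82 CPM in wt (log2 -2.09 ± 0.45, adjusted p = 0.00864; not called without wt 1 or without wt 2, both at -2.09). AT1G71866 rose, at 0.755 and 0.821 CPM in cml39, against 0.188 and 0.0956 CPM in wt (log2 2.38 ± 0.64; not called by DESeq2, at 2.45, with the replicate block, at 2.4, or without wt 1 or wt 2, at 2.96 and 2.03). CRSP stood at -0.41 (adjusted p = 0.0515).

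Genes that act beside BASL at the cell cortex moved both ways. Of 7 tested 3 were higher and 2 lower, with a median of 0.3. The counts were 0 and 0 without wt 1 and without wt 2, 1 and 1 with DESeq2 and with the replicate block, 1 and 2 without cml39 2, and 0 and 2 with upper quartile scaling, where the median was 0.15. POLAR, which gathers at the same cortical pole as BASL, had 2.52 and 2.74 CPM in cml39, against 5.7 and 4.11 CPM in wt (log2 -0.91 ± 0.28, edgeR adjusted p = 0.0341), a call that DESeq2 (-0.9), the replicate block (-0.89) and the fits without cml39 1 (-0.85) or either wt library (-0.64 and -1.13) did not give. BRXL2 fell by 0.65 ± 0.15 on the log2 scale and was not called without wt 1 (-0.65) or wt 2 (-0.66). The phosphatase genes BSL1 (0.4 ± 0.1), BSL2 (0.3 ± 0.1) and BSL3 (0.33 ± 0.11) rose. All 3 calls were lost with upper quartile scaling (0.25, 0.15 and 0.19), without wt 1 (0.37, 0.28 and 0.35) and without wt 2 (0.42, 0.31 and 0.31). Those of BSL2 and BSL3 were also lost with DESeq2 (0.3 and 0.34), with the replicate block (0.3 and 0.33) and without cml39 2 (0.26 and 0.24).

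Of 11 tested genes of further lineage transcription factors and of division control in the lineage, 8 were lower and 0 higher, with a median of -1.07, and 4 were lower without wt 1. CYCA2;3 and CYCA2;4, A-type cyclins known to act in the guard mother cell division, had -1.89 ± 0.18 and -2.47 ± 0.25 on the log2 scale. CYCA2;2 had -1.85 ± 0.35. CDKB1;1, their kinase partner, had 0.201 and 0.985 CPM in cml39, against 4.73 and 3.35 CPM in wt (-2.79 ± 0.57, edgeR adjusted p = 0.00655; -2.04 without cml39 1 and -4.3 without cml39 2). FLP and MYB88, which stop the guard mother cell after a single division, fell by 0.71 ± 0.18 and by 0.6 ± 0.14 on the log2 scale, and neither was called without wt 1 (-0.75 and -0.56) or wt 2 (-0.68 and -0.64). SOL1 (-1.16 ± 0.28) and SOL2 (-1.07 ± 0.23) fell too, and neither was called without wt 1 (-0.92 and -0.86). CYCD5;1 (-0.24, adjusted p = 0.412) and RBR1 (-0.18, adjusted p = 0.295) did not pass. The libraries do not tell in which cells the genes of this list changed. Markers of dividing cells had a median of -1.87, and whether the falls lie in the stomatal lineage was not tested.

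**Figure D4:**
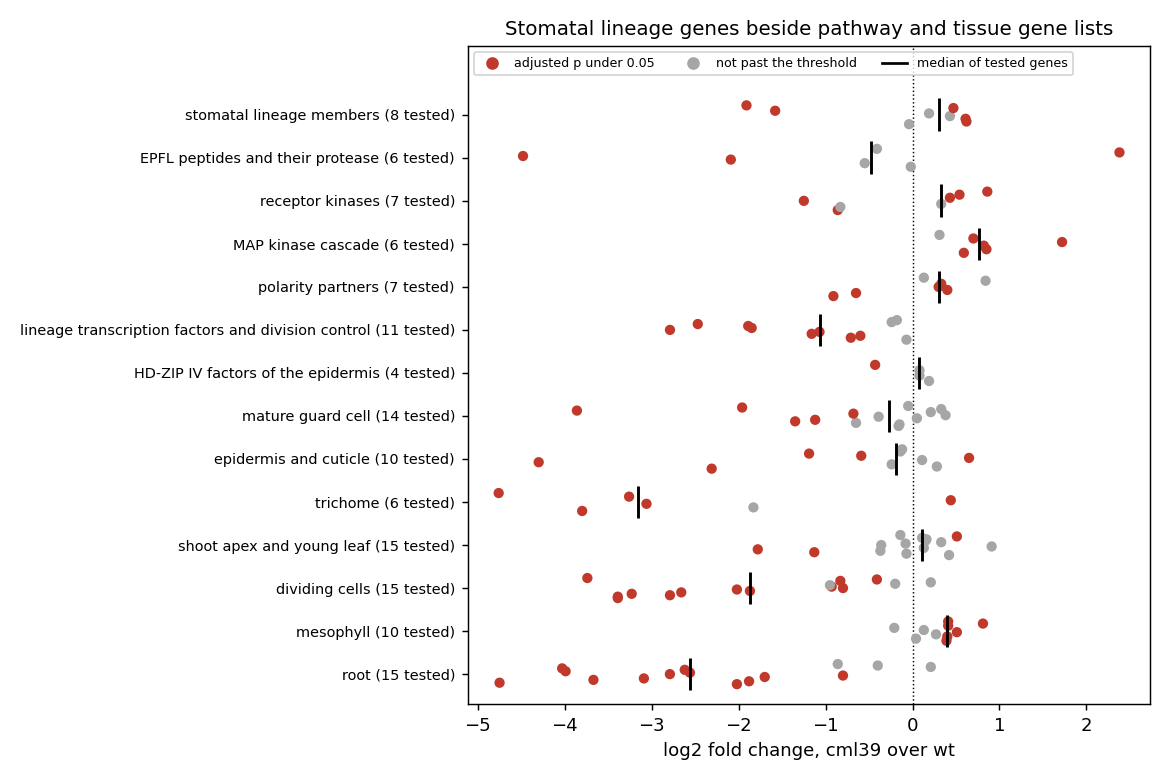
Log2 fold change of cml39 over wt (horizontal axis) of each tested gene in the stomatal lineage list and in 13 of the further lists; red points passed an adjusted p of 0.05, grey points did not, black bars are list medians, and WOX5, with 0 counts in cml39, is drawn at its 3-count bound. The median is 0.31 for the stomatal lineage genes, -1.87 for dividing cells, -2.56 for root and 0.4 for mesophyll.

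The median log2 change of the 8 tested stomatal lineage genes was 0.31, against -1.87 for markers of dividing cells, or -0.01 against -1.76 without cml39 1. Of 15 tested markers of dividing cells 12 were lower and 0 higher, and 9 were lower without wt 1. KNOLLE, the syntaxin of cytokinesis, had 2.97 and 3.83 CPM in cml39, against 38.4 and 32.6 CPM in wt (log2 -3.39 ± 0.18, edgeR adjusted p = 4.76e-05). The list was uneven. CYCB1;2 (-3.39) and HINKEL (-3.74) fell as far, while MCM2 (-0.8) and CYCD3;1 (-0.41) fell less. MCM2 was not called without wt 1 (-0.58). CYCD3;1 was not called by DESeq2 (-0.41), with the replicate block (-0.41), without cml39 2 (-0.38) or without either wt library (-0.3 and -0.52). PCNA1 (-0.95), PCNA2 (-0.2) and CDC6 (0.21) did not pass. The summed level of the 15 genes was 82.3 and 85.1 CPM in cml39, against 270 and 218 CPM in wt. SPCH over this sum was 0.0721 and 0.0701 in cml39, against 0.0244 and 0.0256 in wt, a difference that comes from the sum, since the level of SPCH itself stood at a log2 change of -0.04.

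Genes of mature guard cells were lower or did not pass. Of 14 tested 0 were higher and 5 lower, or 0 and 3 without wt 1, with a median of -0.27, and their summed level was 386 and 354 CPM in cml39, against 404 and 448 CPM in wt. MYB60, a guard cell transcription factor, had 15.1 and 14.4 CPM in cml39, against 16 and 16.6 CPM in wt (log2 -0.15 ± 0.14, edgeR adjusted p = 0.436). SCAP1, a factor of guard cell maturation, had a log2 difference of -0.16 ± 0.22 (adjusted p = 0.612). KAT2, a potassium channel, had -1.35 ± 0.26 (not called without wt 1, at -1.17), AKS1, a transcription factor that promotes opening, -1.96 ± 0.25, AT1G22690 -0.68 ± 0.12, and MYB61 -3.86 ± 0.68 with 5 counts in all in cml39 (-3.16 without cml39 1, -5.17 without cml39 2). SLAC1, the anion channel of closure, had -1.12 ± 0.38 (adjusted p = 0.0479), and its call was lost with DESeq2 (-1.13), with limma-voom (-1.06) with the replicate block (-1.11), with the numbers crossed (-1.12) and when any 1 of the 4 libraries was left out (-1.35 to -0.88). KAT1 (-0.65, adjusted p = 0.0609), ALMT12 (-0.39) and CYP86A2 (-0.05) did not pass. GORK (0.38), BLUS1 (0.33), HT1 (0.21) and OST1 (0.05) stood above 0 and did not pass either. Over all tested genes 40.9% were called, 19.3% higher and 21.6% lower. AKS1 and MYB61 are also expressed outside guard cells.

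Other parts of the seedling were followed to set these values beside tissue content. HD-ZIP IV factors of the epidermis had 0 higher and 1 lower of 4 tested, or 0 and 0 without wt 1, with a median of 0.08 (-0.14 without cml39 1). ATML1, which gives epidermal cells their identity, had 155 and 152 CPM in cml39, against 141 and 149 CPM in wt (log2 0.08 ± 0.1, edgeR adjusted p = 0.551), and its relative PDF2 fell by 0.43 ± 0.1 on the log2 scale, a call lost without wt 1 (-0.46) and without wt 2 (-0.41). Of 10 epidermis and cuticle genes 1 was higher and 4 lower, or 1 and 3 without wt 1, with a median of -0.19 and a summed 1660 and 1610 CPM in cml39, against 1990 and 2030 CPM in wt. PDF1, a cell wall protein of young epidermis, fell by 2.31 ± 0.14, and CER1, a wax synthesis gene, by 4.3 ± 0.3. LTP1 (-1.19 ± 0.1) and LACS2 (-0.59 ± 0.11; -0.54 and not called without wt 1) fell too, and the cuticle transporter gene ABCG11 rose (0.65 ± 0.13).

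Trichome regulators belong to another epidermal lineage. Of 6 tested 1 was higher and 4 lower, or 0 and 4 without wt 1, with a median of -3.16. GL2 had 0.704 and 2.08 CPM in cml39, against 13 and 10 CPM in wt (log2 -3.06 ± 0.4, edgeR adjusted p = 0.00101; -2.47 without cml39 1 and -4.02 without cml39 2), and TTG2 had -3.26 ± 0.55 (-4.72 without cml39 1, -2.58 without cml39 2). GL1 had 2 counts in cml39, against 38 in wt, a 15.2-fold lower level (exact binomial 95% interval 3.94 to 130; not called without wt 2, at -3.56), and ETC1 had 1 count in cml39, against 41 in wt, a ratio of 32.9 for wt over cml39 (interval 5.58 to 1330; edgeR adjusted p = 0.00562). TTG1 had 64.3 and 67.7 CPM in cml39, against 46.2 and 50.9 CPM in wt, and rose (0.44 ± 0.11, adjusted p = 0.0142), a call lost with upper quartile scaling (0.3), without wt 1 (0.38) and without wt 2 (0.5). GL3 did not pass (-1.83, adjusted p = 0.0925). GL2 and TTG2 are active in roots too, and the libraries do not tell in which cells the genes of this list changed.

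Of 15 tested shoot apex and young leaf genes 1 was higher and 2 lower, or 0 and 2 without wt 1 and 0 and 4 with upper quartile scaling, with a median of 0.11 (-0.02 without cml39 2) and a summed 339 and 321 CPM in cml39, against 319 and 355 CPM in wt. GRF5 (-1.78 ± 0.21) and ANT (-1.13 ± 0.18), both promoters of leaf cell division, fell, and KAN1 (0.51 ± 0.16; not called without wt 1, at 0.32, without cml39 1, at 0.44, or with upper quartile scaling, at 0.36) rose, while STM, the meristem gene, stood at 0.42 (adjusted p = 0.28). The stem cell genes CLV3 and WUS were at or near 0 counts in both groups. Of 10 mesophyll genes 6 were higher and 0 lower. Leaving out 1 library gave 3 higher without cml39 1, 2 without cml39 2, 4 without wt 1 and 6 without wt 2, each with 0 lower. There was 1 higher with the replicate block, and 2 were higher and 1 lower with upper quartile scaling. The list had a median of 0.4 and a summed 50600 and 49600 CPM in cml39, against 39600 and 40500 CPM in wt. STOMAGEN, known to be made in mesophyll, stood at a log2 change of -1.58 beside this list, which holds photosynthesis genes only. Of 15 root genes 12 were lower and 0 higher, or 10 and 0 without wt 1, with a median of -2.56 and a summed 1080 and 1350 CPM in cml39, against 4690 and 4150 CPM in wt. Most of the root sum was PYK10, at 973 and 1210 CPM in cml39, against 4290 and 3750 CPM in wt. SCR (0.21), PLT1 (-0.4) and PLT2 (-0.86) did not pass. PLT1 and PLT2 had 6 and 0 counts in cml39 1, against 55 and 21 counts in cml39 2. The part of root and mesophyll content in the changes of FAMA, TMM, ICE1, STOMAGEN and SDD1 was not tested.

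By centred log2 CPM over the 4 libraries, the gene most like TMM was YDA, at a Euclidean distance of 0.00968, followed by CKX7 (0.0231) and VPS28-1 (0.0301). The genes most like SPCH were smB (0.013), AT5G55960 (0.0191) and ATKRS-1 (0.033). These were the nearest genes of each, and how many others lie close was not counted. With only 4 libraries a small distance says little.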

How the data were processed

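Strand-specific mRNA libraries of 4 seedling samples were analysed, 2 labelled cml39 and 2 labelled wt. The submitters' processing notes name CASAVA 1.8, FastQC, STAR 2.5.2b, DESeq2 1.14.1 and the build TAIR10; the strand setting and annotation of the counting are not given in the sources used here. The deposited counts are raw whole numbers per gene. In the authors' deposited table, per the file headers, the mean normalized count is a signal over the libraries of their fit, the fold change and its SE are log2 values, the score is the Wald statistic, and p-values and adjusted p-values are given.

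Counts were fitted in R 4.3.3 with edgeR 4.0.16 (filterByExpr, TMM scaling, two-sided quasi-likelihood F test), and p-values were adjusted by Benjamini-Hochberg over 19834 genes, threshold 0.05. The biological coefficient of variation was 0.129. The SE of an edgeR value is its absolute log2 change divided by the square root of F. The 95% interval takes a t quantile of that SE, with the degrees of freedom moderated over all genes. Intervals and floors (3 counts) cover counting error only unless given for a fitted value, since fragments carry no molecular identifiers. Exon lengths, names and positions come from RefSeq TAIR10.1, which held 32548 of 32833 identifiers; no member overlaps another annotated gene. Alternatives used DESeq2 1.42.0, limma-voom (limma 3.58.1), other scalings and filters, a robust fit, the replicate block and each library left out with the tested genes kept; a group left with 1 library is assumed to vary like the other. The members and lists were chosen with earlier results of these data known. Named were all members, up to 4 genes of each further list by lowest p, genes of lists with 5 or fewer calls, genes most like SPCH and TMM, and CML39; others were named after their values were seen.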

Additional observations from a re-analysis of the deposited data

How the results depend on the processing

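STOMAGEN and SDD1 were called lower in all 13 alternatives. The count of called members, 5 in the fit reported (3 higher, 2 lower), was 3 with upper quartile scaling (1 higher), and 2 to 5 when each library was left out (0 to 3 higher), the lowest without wt 1 (2 called, 0 higher) and next without wt 2 (3 called, 1 higher). FAMA and TMM kept their call in 11 alternatives and ICE1 in 8. SPCH, BASL and EPF2 passed in 0 of 13. Over all genes, 8107 were called (3822 higher, 4285 lower); leaving out each library gave 4177 to 8364 (1997 to 3943 higher, 2180 to 4421 lower), and without wt 1 there were 4177 (1997 higher, 2180 lower), of which 4163 were among the 8107. With upper quartile scaling 2704 were higher and 5403 lower. Deviations of libraries with the same replicate number correlated at -0.151 across genes, so the numbers are not taken as pairs. With the replicate number as a block, 6744 genes and 4 members were called; ICE1 was not, at 0.47 (adjusted p = 0.064). With the numbers crossed, an alternative chosen after seeing the data, 8696 genes and 5 members were called. Depth limited MUTE and EPF1; for EPF2, with 50 and 14 counts in cml39, the spread between libraries did.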

Other observations

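Among regulators through which light and CO2 set stomatal number, 2 of 7 tested genes were higher and 1 lower, or 1 and 1 without wt 1, with a median log2 change of 0.13. COP1, a ubiquitin ligase that represses stomatal development in the dark, had 45 and 63.7 CPM in cml39, against 30.8 and 26.1 CPM in wt (log2 0.93 ± 0.18, edgeR adjusted p = 0.00507). PIF4, a light and temperature response factor, had 127 and 128 CPM in cml39, against 195 and 192 CPM in wt (-0.6 ± 0.1, adjusted p = 0.0024). PHYB, the red light receptor gene, rose (0.46 ± 0.14, adjusted p = 0.0343), a call lost without wt 1 (0.58), without wt 2 (0.35), without cml39 2 (0.29), with the replicate block (0.46) and with upper quartile scaling (0.32). HIC, a gene of the stomatal response to CO2, stood at 0.77 (adjusted p = 0.0623). The counts of this list are not read as more than the background, where 19.3% of tested genes were higher and 21.6% lower. Of 3 phloem companion cell genes 0 were higher and 1 lower, or 0 and 0 without wt 1, with a median of 0.02 (0.11 without wt 1): SUC2, a sucrose transporter, fell by 0.47 ± 0.1 on the log2 scale, a call lost without wt 1 (-0.42).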
